A study of Triticum aestivum with 2 samples.

Results

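Thioredoxin, the 2-cys peroxiredoxin BAS1, metallothionein and nicotianamine synthase are the redox and metal homeostasis genes among the transcripts that the study listed as antisense candidates. All probe sets that share the design cluster name of a listed one were taken, which gave 6 of the 61115 wheat probe sets on the array. Of these, 4 were selected on measured values, being listed by the study for their Present calls and log2 expression in the same 2 hybridizations, so their brightness is described here and supports nothing. An S-lettered peroxiredoxin probe set and the nicotianamine synthase probe set Ta.771.1.S1_at came in by name alone.

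Total RNA of the spring wheat 'Chinese Spring' from dark-germinated seed, young shoots, flag leaves, and spikes before and after anthesis was mixed in equal parts. The mixture of these 5 tissues was hybridized once by the WT assay, which starts from random primers and labels targets so that antisense-strand transcripts bind, and once by the 3'IVT assay, which starts from oligo(dT) and reads the sense strand. Each assay has 1 array, so the spread between samples is unknown and nothing was tested. In a mixture, fewer cells of a type and less RNA per cell cannot be told apart, and these arrays assign no signal to a tissue. Probe sets of 4 genes that mark photosynthetic tissue (RUBISCO small subunit and activase, carbonic anhydrase, chlorophyll a/b binding protein) were above the WT threshold in 8 of 18 cases, where 0.367% of all wheat probe sets were, and above the 3'IVT threshold in 15 of 18, against 17.3% of the array. Probe sets of these genes are also on the study's lists, which were selected on signal in these hybridizations, so the counts are in part set by selection.

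Signals are given as log2 of the MAS5 signal intensity. The threshold in each assay is the lowest of the 9 probe sets for bioB, a bacterial transcript spiked in at the detection limit, at 15.19 in the WT assay and 9.69 in the 3'IVT assay. The excess of a probe set is its log2 signal minus that threshold. The median wheat probe set had an excess of -7.18 log2 units in the WT assay and of -3.07 in the 3'IVT assay. The only spread that could be measured was that between spiked-in probe sets for the same control region, with an SD of 0.26 log2 units in the WT assay and 0.32 in the 3'IVT assay (27 probe sets of 9 regions). As the assays prime, amplify and label the RNA differently, an excess in one assay is not a level that can be set against the other. A difference between probe sets also reflects how well their probes bind.

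The genes belong to linked parts of plant cell chemistry. Thioredoxins are small proteins that reduce disulfide bonds in other proteins. Thioredoxins of the m type work in the chloroplast, where they receive electrons from ferredoxin and switch photosynthetic enzymes with light. The 2-cys peroxiredoxin BAS1 is a nuclear-encoded chloroplast enzyme that removes peroxides formed near the thylakoids and is itself reduced by thioredoxins. Metallothioneins are small cysteine-rich proteins that bind copper and zinc. Nicotianamine synthase makes the metal chelator nicotianamine from S-adenosylmethionine, and in grasses nicotianamine is also the precursor of the phytosiderophores that roots release to take up iron.

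Of the 6 probe sets, 3 were above the threshold in the WT assay, where 0.367% of all wheat probe sets were. In the 3'IVT assay 4 of the 6 were, against 17.3% of the array. Thioredoxin and metallothionein were above both thresholds (0.208% of the array), the A-lettered peroxiredoxin probe set was above the WT threshold alone (0.159%), and its S-lettered partner and nicotianamine synthase Ta.771.1.S1_at were above the 3'IVT threshold alone (17.1%). Nicotianamine synthase Ta.771.2.S1_at was above neither, as were 82.6% of the array. Over the 6 probe sets the excess ran between -4.86 and 1.40 log2 units in the WT assay, with a median of -0.12, and between -1.20 and 5.04 in the 3'IVT assay, with a median of 3.84. All listed probe sets were chosen for WT signal. Thioredoxin, metallothionein and Ta.771.2.S1_at were also chosen for 3'IVT signal, and the A-lettered peroxiredoxin probe set for lacking a 3'IVT call. Nothing is therefore read from the shares above either threshold or above both.

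**Figure D1:**
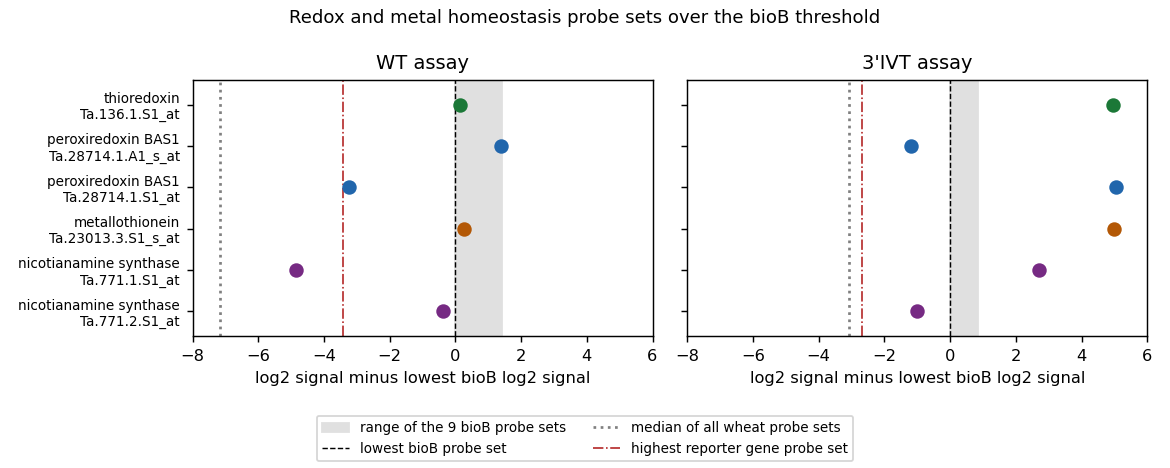
Log2 signal of each of the 6 probe sets minus the threshold of the array, in the WT assay (left) and the 3'IVT assay (right), 1 array each. The grey band spans the 9 bioB probe sets, and the lines mark the lowest of them, the median of all wheat probe sets and the highest reporter gene probe set. In the WT assay the points above 0 all lie inside the bioB band, with at most 1.40 log2 units of excess. In the 3'IVT assay 4 points lie 2.71 to 5.04 above the threshold.

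Thioredoxin is represented by the single probe set Ta.136.1.S1_at, which the platform annotation pairs with the gene LOC542973, synonym Trx-M. Its signal intensity was 41214 in the WT assay and 25766 in the 3'IVT assay, or log2 signals of 15.33 and 14.65. It stood at rank 209 of 61115 in the WT assay and at rank 144 in the 3'IVT assay, so it was among the brightest probe sets of both. The excess in the WT assay was nevertheless 0.14 log2 units, less than the SD of 0.26 between probe sets of a control region. In the 3'IVT assay the excess was 4.96. Of the 9 bioB probe sets 1 was dimmer than thioredoxin in the WT assay, and all 9 were dimmer in the 3'IVT assay. Thioredoxin was thus the member just inside the WT threshold.

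Metallothionein is also represented by a single probe set, Ta.23013.3.S1_s_at, whose suffix says that its probes match more than one transcript. Its signal intensity was 45027 in the WT assay and 26535 in the 3'IVT assay, log2 signals of 15.46 and 14.70, at ranks 194 and 131. The excess of 0.27 log2 units in the WT assay was about as large as the SD of 0.26. In the 3'IVT assay the excess was 5.00. In the WT assay 2 bioB probe sets were dimmer than metallothionein. Probe sets with this suffix were above the WT threshold more often than those with probes for a single transcript, in 1.64% of 2617 against 0.291% of 48411, and likewise above the 3'IVT threshold, in 33.4% against 12.2%. Which of the metallothionein transcripts it matches gave the signal cannot be told from the probe set.

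Thioredoxin and metallothionein were close to each other in both assays. Measured as the Euclidean distance over the 2 log2 signals, each was the nearest of 1372 probe sets to the other, at 0.13 log2 units. This distance was below the SD between control probe sets in either assay. The 1372 have a putative function in the study's lists or a gene symbol in the platform annotation. The next nearest to both was TaAffx.120885.1.S1_s_at, with log2 signals of 15.10 in the WT assay and 14.42 in the 3'IVT assay. The platform annotation pairs it with LOC543372, the gene it also gives for 2 probe sets of the S-adenosylmethionine decarboxylase cluster described below. An ATP synthase probe set, TaAffx.128565.25.S1_s_at, was the one after that for both, with 15.49 and 14.23. Likeness over 2 values says only that the signals are alike.

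**Figure D2:**
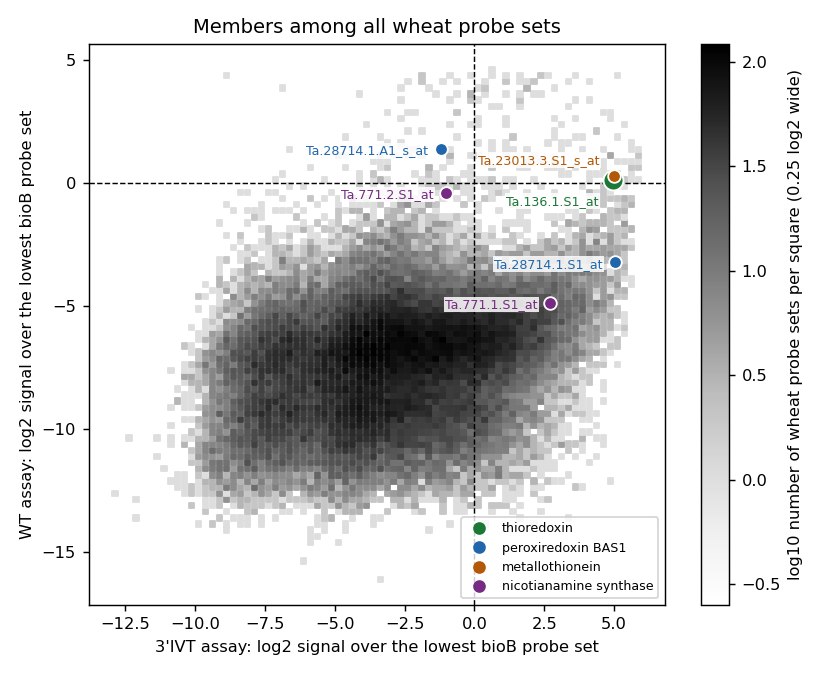
Excess over the bioB threshold in the WT assay (vertical) and the 3'IVT assay (horizontal), in log2 units, for all 61115 wheat probe sets as grey squares shaded by number and for the 6 members as coloured points. Thioredoxin and metallothionein overlap at the right just over the WT threshold, and each gene with a pair of probe sets has one at the lower right and the other at the upper left.

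Probe sets as bright as thioredoxin and metallothionein in the 3'IVT assay were above the WT threshold more often than the rest of the array. Of all 10561 probe sets above the 3'IVT threshold, 1.20% were also above that of the WT assay. Among the 441 with an excess of 4 to 5 log2 units in the 3'IVT assay, where thioredoxin falls, the share was 4.54%. It was 16.8% among the 131 with 5 or more, where metallothionein falls. Thioredoxin and metallothionein had excesses of 4.96 and 5.00, which differ by less than the SD of 0.32 between control probe sets. Only the range edge at 5 separates them, so the shares do not distinguish them. The S-lettered peroxiredoxin probe set falls in the same top range as metallothionein. It had a WT excess of -3.22 log2 units, against a median of -2.41 for the 131. Nicotianamine synthase Ta.771.1.S1_at falls in the range of 2 to 3, where 1.09% of 1747 probe sets were above the WT threshold.

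**Figure D3:**
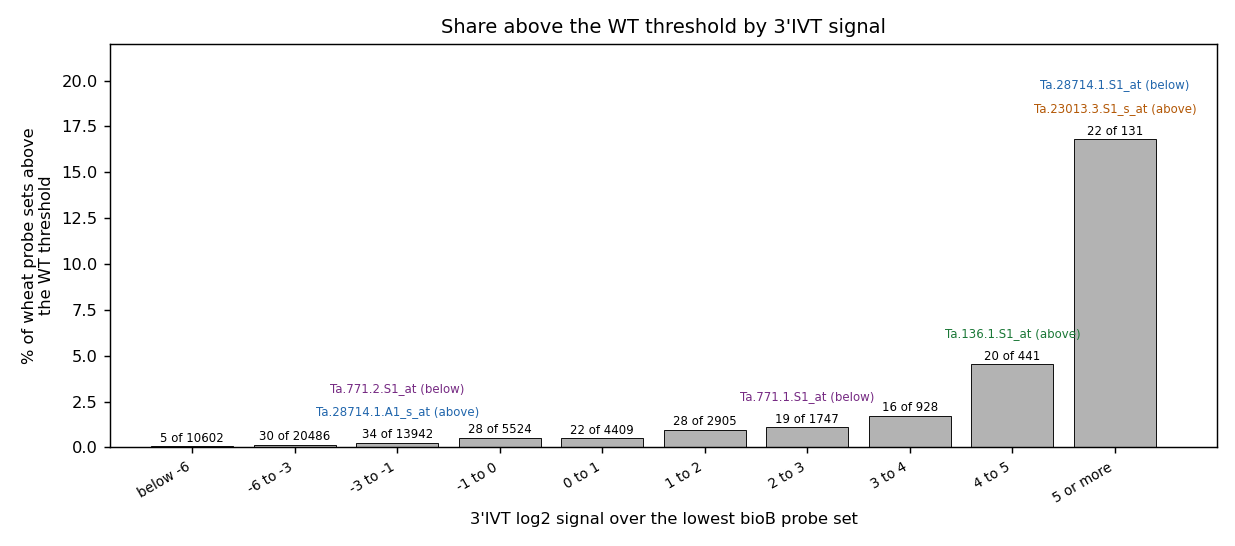
Share of wheat probe sets above the WT threshold (vertical, percent) in ranges of excess over the 3'IVT threshold (horizontal, log2 units), with the number of probe sets on each bar. Each member is written over its own range with its side of the WT threshold. The share was 4.54% in the range of thioredoxin and 16.8% in that of metallothionein and the S-lettered peroxiredoxin probe set. Thioredoxin, at 4.96, and metallothionein, at 5.00, lie close together on either side of the range edge, so the shares do not distinguish them.

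The peroxiredoxin BAS1 sequence carries one A-lettered probe set, the listed one, and one S-lettered probe set. Both are paired with the gene LOC542768, synonym TSA, in the platform annotation. Affymetrix writes A or S for the antisense or sense orientation of the design sequence, so that an A-lettered probe set would, if the orientation is right, detect sense transcripts with WT targets. The signal intensity of the A-lettered probe set was 98303 in the WT assay and 360 in the 3'IVT assay, and that of the S-lettered one was 3992 in the WT assay and 27184 in the 3'IVT assay. The A-lettered probe set was the brighter of the pair in the WT assay and the dimmer in the 3'IVT assay.

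The A-lettered peroxiredoxin probe set had the largest excess of the 6 members in the WT assay, 1.40 log2 units at rank 112, and was brighter than 8 of the 9 bioB probe sets. In the 3'IVT assay its excess was -1.20, at rank 17343. The S-lettered probe set was the brightest of the members in the 3'IVT assay, 5.04 over the threshold at rank 113. Its WT log2 signal of 11.96 was 0.20 above the highest of 63 probe sets for reporter genes that wheat does not carry, which had 11.76. In the WT assay the S-lettered probe set was therefore no brighter, beyond the SD of 0.26, than the highest background probe set. That SD was measured on control probe sets that were all brighter. The S-lettered probe set still stood at rank 1735 in the WT assay, where the median reporter gene probe set had 6.57.

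S minus A of the peroxiredoxin sequence was -4.62 log2 units in the WT assay and 6.24 in the 3'IVT assay. The array holds 168 sequences with probe sets of both letters, and the medians of S minus A over them were -2.34 in the WT assay and 2.15 in the 3'IVT assay. The quartiles were -3.71 and -0.38 in the WT assay and 0.13 and 4.00 in the 3'IVT assay, and the peroxiredoxin difference in the 3'IVT assay lay outside them. The size of the WT difference was not ranked. Its S-lettered side was no brighter, beyond the SD, than the highest reporter gene probe set, and its A-lettered side was listed for WT signal. The S-lettered probe sets were below the A-lettered ones in the WT assay and above them in the 3'IVT assay for 109 of the 168 (64.9%), and the order seen for peroxiredoxin was thus the usual one. In the 3'IVT assay 15 sequences had a higher S minus A than peroxiredoxin. Its A-lettered probe set was listed for lacking a 3'IVT call, which favours a large difference in that assay. The place of peroxiredoxin among the 168 was thus in part set by selection, and nothing is read from it.

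Of the 168, 5 had the A-lettered side above the WT threshold alone and the S-lettered side above the 3'IVT threshold alone. Besides peroxiredoxin these were S-adenosylmethionine decarboxylase (S minus A of -6.06 in the WT assay and 5.60 in the 3'IVT assay), a COBRA-like protein (TaAffx.143995.13, -4.76 and 8.83), Ta.30727.1 (-2.00 and 10.61) and TaAffx.113847.1 (-4.44 and 3.04). The A-lettered probe sets of peroxiredoxin and S-adenosylmethionine decarboxylase were listed by the study for a WT call without a 3'IVT call. Their place in this class was therefore in part set by selection, and nothing is read from its size. The A-lettered peroxiredoxin probe set also carries the suffix for probes shared between transcripts, which its S-lettered partner does not, so letter and suffix cannot be told apart in this pair. Among A-lettered probe sets as a whole 0.244% were above the WT threshold alone and 0.122% above both thresholds, against 0.141% and 0.226% of S-lettered ones. The shares above the WT threshold in all were 0.366% of A-lettered and 0.367% of S-lettered probe sets.

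**Figure D4:**
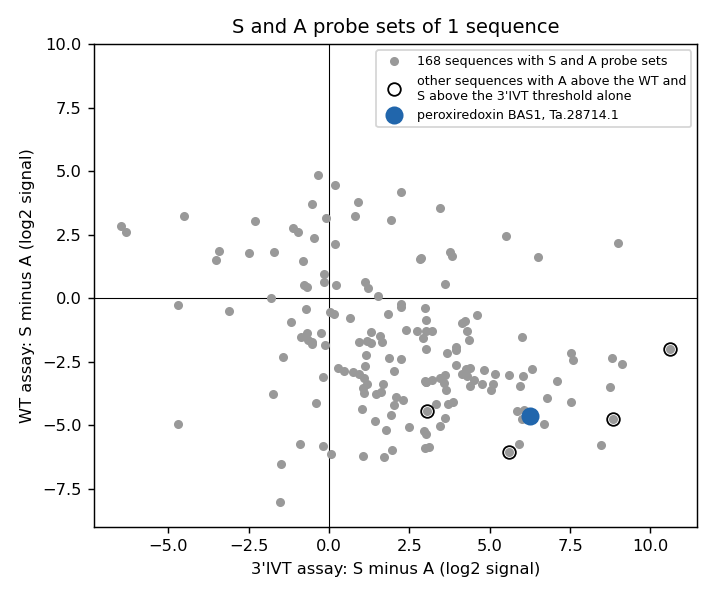
Difference in log2 signal between the S-lettered and the A-lettered probe sets of the same sequence, in the WT assay (vertical) and the 3'IVT assay (horizontal), for 168 sequences. Peroxiredoxin BAS1 lies at -4.62 and 6.24, in the lower right field that holds 109 of the sequences, and circles mark the 4 others with the same calls.

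The probe sets nearest to the A-lettered peroxiredoxin one were for a DNA-directed RNA polymerase beta chain (TaAffx.5832.1.S1_at, at a distance of 0.58 log2 units over both signals), an oxygen-evolving enhancer protein (TaAffx.26342.1.S1_at, 0.65) and an NAD(P)H-dependent oxidoreductase (TaAffx.80571.1.S1_at, 0.70). All of these names carry the letter S. Their putative functions come from the study's lists, whose probe sets were selected on signal in these hybridizations. Which probe sets could come out nearest was thus in part set by selection, and nothing is read from them.

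Nicotianamine synthase is represented by the copies Ta.771.1 and Ta.771.2, both S-lettered and both with probes for a single transcript. The listed one is Ta.771.2.S1_at, which the study counted as hybridizing in both assays by its own summaries and calls. Ta.771.2.S1_at had a signal intensity of 28571 in the WT assay and 410 in the 3'IVT assay, log2 signals of 14.80 and 8.68. Its excess was -0.38 log2 units in the WT assay and -1.01 in the 3'IVT assay, and it was the member just outside the WT threshold, at rank 265. It was still 3.04 log2 units brighter than the highest reporter gene probe set in the WT assay and 1.66 brighter in the 3'IVT assay. Ta.771.1.S1_at had 1285 in the WT assay and 5432 in the 3'IVT assay, log2 signals of 10.33 and 12.41, which was 2.71 over the threshold in the 3'IVT assay. In the WT assay its log2 signal minus that of the highest reporter gene probe set was -1.44, so it was the dimmer of both. The brighter copy in one assay was the dimmer copy in the other, though all of these signals were above the array medians.

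Copy 1 minus copy 2 was -4.47 log2 units in the WT assay and 3.73 in the 3'IVT assay. The array holds 2673 clusters with exactly 2 S-lettered sequences of 1 probe set each. The median size of the difference between copies in these was 1.75 log2 units in the WT assay and 2.10 in the 3'IVT assay. A larger difference than that of nicotianamine synthase was found in 710 clusters in the 3'IVT assay. The listed copy, Ta.771.2.S1_at, was chosen for 3'IVT signal as well, so nothing is read from that number. In the WT assay the dimmer copy was below the highest reporter gene probe set. The brighter one was listed for signal in both assays, so the size of the WT difference was not ranked. The order of the copies was opposite in the assays in 48.9% of the clusters. The nearest probe sets to Ta.771.2.S1_at were a stress-responsive zinc-finger protein (Ta.28276.3.A1_at, 0.34 log2 units), a thylakoid membrane phosphoprotein (TaAffx.84637.1.S1_at, 0.37) and the 40S ribosomal protein S9 (Ta.24981.1.S1_at, 0.92). These neighbours are also on the study's lists, so nothing is read from them.

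S-adenosylmethionine, the substrate of nicotianamine synthase, links these genes to others of the same functional categories in the study's lists. The other listed probe sets under homeostasis and secondary metabolism are those of S-adenosylmethionine synthetase, which makes it, S-adenosylmethionine decarboxylase, which diverts it to polyamines, cystathionine beta-lyase of methionine synthesis, a rhodanese-like protein and an alpha-N-arabinofuranosidase, an enzyme of cell wall polysaccharides. All 5 were above the WT threshold alone, which is what the study selected them for, with excesses in the WT assay of 1.25, 1.86, 1.03, 2.20 and 0.56 log2 units. The S-adenosylmethionine synthetase probe set had log2 signals of 16.43 in the WT assay and 4.70 in the 3'IVT assay and has no second probe set in its cluster.

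The 6 clusters with more than 1 probe set among the 4 genes and these 5 shared an order, in that the brightest probe set in the WT assay was the dimmest in the 3'IVT assay in each. Over the array this held for 40.3% of 8842 such clusters, and for 38.9% of the 72 with a probe set above the WT threshold. The listed probe sets of all 6 were selected for WT signal, and those of 5 also for lacking a 3'IVT call. The shares over the array were not matched for the number of probe sets in a cluster. The count is therefore a description, and nothing is read from its distance to those shares. In the S-adenosylmethionine decarboxylase cluster, the listed A-lettered probe set had 17.05 in the WT assay and 9.16 in the 3'IVT assay, whereas the other 5 probe sets had 10.59 to 13.97 in the WT assay and 12.37 to 15.01 in the 3'IVT assay. For cystathionine beta-lyase both orders came from A-lettered probe sets of 1 sequence, with 16.22 in the WT assay and 6.80 in the 3'IVT assay at the listed one and with 11.55 and 11.78 at one whose suffix marks shared probes. For the rhodanese-like protein the listed S-lettered probe set was the one bright in the WT assay, with 17.39 against 7.93 in the 3'IVT assay. The letter of the WT-bright probe set thus differed between clusters.

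Further redox and metal genes were sought by name in the platform annotation, which covers 1273 probe sets and so reaches few of them. It gave 7 probe sets beside thioredoxin, for catalase CAT1, which breaks down hydrogen peroxide, for the phytochelatin synthase PCS1, which makes metal-binding peptides, and for a gene with the synonym Prx1. None of the 7 was above the WT threshold and 4 were above that of the 3'IVT assay, beside shares of 0.367% and 17.3% over the array. With so low a share in the WT assay, the absence of a call among 7 says nothing about these genes. CAT1 came closest to thioredoxin, with log2 signals of 14.13 in the WT assay, an excess of -1.06, and 14.46 in the 3'IVT assay, an excess of 4.76 (Ta.442.1.S1_at). Its second probe set, TaAffx.80209.1.S1_at, had 10.70 in the WT assay and 4.77 in the 3'IVT assay. The 4 probe sets of Prx1 had 7.16 to 12.61 in the WT assay and 7.64 to 13.52 in the 3'IVT assay. PCS1 was above neither threshold, with 8.89 in the WT assay and 8.97 in the 3'IVT assay (Ta.232.1.S1_at).

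In the RefSeq annotation of wheat assembly IWGSC CS RefSeq v2.1 no other annotated gene overlapped LOC542973 or LOC542768. The thioredoxin gene lies between long non-coding RNA genes, and the peroxiredoxin gene lies between a long non-coding RNA gene and a protein-coding gene. The table used gives no strand.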

How the data were processed

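The deposited values are linear signal intensities from MAS5, per the labels, with 1 for each probe set on each array. MAS5 combines matched and mismatched probes, subtracts background and scales each array on its own. Over all 61290 signals, trimming 2% at each end left a mean of 500.2 for the WT assay and 500.3 for the 3'IVT assay. The study's lists rest on RMA summaries and Present calls, which were not used here, so a listed probe set can lie below a threshold. Here log2 was taken, and 111 Affymetrix controls and 64 reporter gene probe sets were left out of counts. Of the reporter genes, 1 with signals in the range of the creX control was also left out of the background. The number of arrays limits the precision.

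Counts of probe sets above the lowest bioB probe set were set beside the same counts over the array. The members and lists were chosen with earlier results of these data known. All 6 members are named, with the 3 probe sets nearest to each listed one, and other sequences were named after their values were seen. The platform annotation names 3 of the 6 members, and 1272 of its 1273 probe sets were matched by gene identifier to RefSeq. Alternatives were other thresholds, quantile normalization, and leaving out shared or dim probe sets. Counting steps were tested on simulated data. The work used matplotlib 3.10.9, scipy 1.17.1, pandas 2.3.3 and numpy 2.4.6 under Python 3.11.15.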

Additional observations from a re-analysis of the deposited data

How the results depend on the processing

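The count of members above the WT threshold was 3 and depended on the bioB value taken. With the median of the bioB probe sets it was 1, with the highest 0, and without members of a shared suffix 1. The count above both thresholds was then 0, 0 and 1, against 2. The count above the WT threshold alone was 0 with the highest bioB probe set, 0 without shared suffixes and 2 with the 99th percentile of the wheat probe sets as threshold, against 1. The count above the 3'IVT threshold alone was 4 with the median, 4 with the highest bioB probe set and 1 with the 99th percentile, against 2. With the median bioB value the WT excess became -0.81 for thioredoxin and -0.68 for metallothionein, so both turned from above to below. The median WT excess went from -0.91 to -1.87 for peroxiredoxin and from -2.62 to -3.58 for nicotianamine synthase. For these genes the median lies between probe sets that are far apart and describes neither of them. In the 3'IVT assay the median excess became 4.52, 4.57, 1.48 and 0.42 in the same order of genes, against 4.96, 5.00, 1.92 and 0.85. Quantile normalization gave a 3'IVT excess of 5.75 for thioredoxin, 5.85 for metallothionein and 2.55 for peroxiredoxin, a WT excess of -2.28 for nicotianamine synthase, and S minus A of the peroxiredoxin sequence of -3.42 in the WT assay and 6.99 in the 3'IVT assay. Without the shared A-lettered probe set the peroxiredoxin excess was -3.22 in the WT assay and 5.04 in the 3'IVT assay. Leaving out members below both array medians removed none and changed no count. Metallothionein has no value without shared suffixes. The other 21 values kept their sign and moved by less than the spread between control probe sets, or stayed within 1.5 times the count. No paired analysis was possible because each assay has 1 array. For the same reason no replicate could be left out, and no value has a check in a second hybridization.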
